A study of Homo sapiens with 16 samples.

Results

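The genes described here encode the proteins of the cytosolic ribosome. They were chosen by name from the deposited table of 58735 genes: protein-coding genes of GENCODE 29 whose symbol is RPL or RPS followed by a digit, together with RPLP0, RPLP1, RPLP2 and RPSA, without the RPS6K kinases and without paralogs that carry an L after their number, such as RPL22L1. The rule gave 83 genes, of which 43 encode proteins of the large subunit, 3 its P-stalk and 31 the small subunit. The other members were 3 read-through genes, 2 Y-linked copies whose levels are not printed, and RPS19BP1, which by its name is a binding protein of RPS19 and not a ribosomal protein. The 83 members include RPL3 to RPL9, since in those names the L is part of the protein's own name. A mean of at least 1 FPKM (fragment counts scaled to exon length and library size) was required for testing, and 78 members were among the 13088 genes tested. The read-through genes RPL17-C18orf32, RPL36A-HNRNPH2 and RPS10-NUDT3 were at most 0.0816 FPKM in any library and were not tested.

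The RNA came from the human osteosarcoma line U2OS, transfected with an siRNA against SETD2 (siSETD2) or a non-targeting one (siNT) and taken 48 h later. SETD2 is the enzyme that trimethylates lysine 36 of histone H3. With each siRNA the cells received 2 mM hydroxyurea (HU, an inhibitor of ribonucleotide reductase) together with 2 µM VE-822 (an inhibitor of the replication checkpoint kinase ATR), VE-822 alone, HU alone, or no drug, the drugs for 4 h. Each of the 8 groups held 2 libraries, called R1 and R2, which makes 16 libraries of 1 cell line. The labels leave unsaid whether the 2 libraries of a group are separate cultures; a p-value here measures how far such libraries scatter, and that scatter may be technical.

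A ribosome needs most of its proteins in equal numbers, and their genes are known for being expressed together and at high levels in growing cells. Their mRNAs are the classical 5′ TOP mRNAs: transcription starts at a C within a run of C and T, and this terminal oligopyrimidine tract lets mTORC1 and LARP1 control how strongly the mRNA is translated and how stable it is. When ribosome assembly is disturbed, free RPL5 and RPL11 are known to bind and inhibit the ubiquitin ligase MDM2.

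To show that tract, windows of 30 bases around the annotated start were read for 62 members that have an entry in the RefSeq promoter set (build GRCh38.p14). The members printed are the P-stalk scaffold RPLP0, RPL24, RPS15 and RPS3, whose levels followed those of the other members most closely, RPL7A with the longest run, and RPL22, RPL36A, RPL4, RPS28 and RPS29, which stood apart from most other members in their pattern over libraries or in a fold change. Capitals mark the longest unbroken run of C and T, and base 16 is the annotated start.
RPLP0: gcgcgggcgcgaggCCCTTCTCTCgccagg
RPL24: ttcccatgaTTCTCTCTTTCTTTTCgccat
RPS15: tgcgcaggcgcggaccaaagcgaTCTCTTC
RPS3: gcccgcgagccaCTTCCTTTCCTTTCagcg
RPL7A: ccacaaTTCCCTTTCCTTTCTCTCTCCTCC
RPL22: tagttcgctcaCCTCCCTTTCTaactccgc
RPL36A: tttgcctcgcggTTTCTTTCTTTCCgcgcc
RPL4: tacagcgggagtggtaagcaCTTCCTTTTC
RPS28: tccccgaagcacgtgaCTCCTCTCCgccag
RPS29: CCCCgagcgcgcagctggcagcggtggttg

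These windows lie at chr12:120201097-120201126 (RPLP0, minus strand), chr3:101686704-101686733 (RPL24, minus), chr19:1438381-1438410 (RPS15, plus), chr11:75399503-75399532 (RPS3, plus), chr9:133348203-133348232 (RPL7A, plus), chr1:6199581-6199610 (RPL22, minus), chrX:101390996-101391025 (RPL36A, plus), chr15:66504841-66504870 (RPL4, minus), chr19:8321481-8321510 (RPS28, plus) and chr14:49598696-49598725 (RPS29, minus). The longest run was 24 bases in RPL7A and 4 in RPS29, with a median of 11 over the 62 members, against a median of 4 over 14896 protein-coding promoters. A C at the start was present in 46 of 62 members, against 11.2% of all promoters. A C at the start followed by 4 bases that are C or T was present in 42 of 62 members (67.7%), against 4.67% of all promoters. A run of 8 C or T that opens with C lay within the 30 bases in 44 members (71%), against 10.9%. RPL4 and RPS28 have the run but an A at the annotated start, RPS15 has a C at the start but A after it, and the RPS29 window has no long run. These statements hold for the annotated starts, which may differ from those used in U2OS cells.

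In the whole promoter entries of 300 bases, read on both strands, CCGGAAG, an ETS-type motif, occurred in 21 of 62 members (33.9%) and in 14.4% of all promoters. AAGATGGCG, a YY1-type motif, occurred in 5 members (8.06%) and in 2.83% of all promoters. The TATA box TATAAA occurred in 5 members (8.06%), against 9.37%, and the E-box CACGTG in 3 (4.84%), against 8.94%. The absence of a motif says only that these letters are not in the entry.

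The knockdown was present in every siSETD2 library: SETD2 was at 2.01 to 4.62 FPKM in the 8 siSETD2 libraries and at 7.34 to 9.25 FPKM in the 8 siNT libraries, without overlap, and fell by 1.09 on the log2 scale (SE 0.125, limma adjusted p = 0.0169). Whole fragments recovered from the table summed to 22310806 to 31101932 per library. The mesenchymal genes SPARC (mean 165 FPKM), VIM (118) and CDH2 (47.4) and the bone collagen gene COL1A1 (21.6) were expressed. The mesenchymal gene CDH11 was at 0.617 FPKM, and the second type I collagen gene COL1A2 was near 0 (0.0108). Of the blood genes, PTPRC was near 0 (0.0207) and CD3D was at 1.71 FPKM. The epithelial gene CDH1 was near 0 (0.0769), while EPCAM was at 1.85 and the keratin genes KRT8 and KRT18 at 17.3 and 63.8 FPKM. The libraries with VE-822 alone stood apart: 24.7% of all genes tested passed in that contrast, against at most 0.13% in every other contrast tested. The R1 minus R2 differences of the other 6 groups correlated with each other (r of 0.36 to 0.75), as did those of both groups with VE-822 alone (0.39), whereas between these sets r was -0.05 to 0.30. The replicate numbers thus did not pair the VE-822-alone libraries with the others, and the VE-822 treatment and whatever else set those libraries apart cannot be told apart.

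Between 2.54% and 4.03% of the fragments of a library, 3.05% on average, were assigned to the 83 members (the Wilson 95% intervals, which cover counting error only, were at most 0.0157 percentage points wide). The median member had a mean of 98.7 FPKM, against 5.51 FPKM for all genes tested, and 39 members were above 100 FPKM while 9 were under 20. The highest means were those of RPL8 (512 FPKM) and RPL19 (347) of the large subunit, RPS12 (452) and RPS2 (371) of the small subunit, and the stalk protein RPLP1 (372). The lowest means of tested members were 4.56 FPKM for RPS10, 6.81 for RPL36A, 8.34 for RPS15A, 10.8 for RPL26 and 11.4 for RPL17, so that the highest stood 112-fold above the lowest. All 5 of these genes overlap another annotated gene on their own strand, as do 15 of the 78 in all; in RPS10, RPL17 and RPL36A this is the read-through gene. The members also have 1149 annotated pseudogenes, on which 0.0333% to 0.0562% of fragments were counted. Across members, the log2 mean correlated with the number of pseudogenes at r = -0.0957 and with the log2 of the merged exon length at r = -0.43 (78 genes, which are not independent, and the length is also the divisor of FPKM). Fragments shared between a gene, its pseudogenes and overlapping genes may be lost or split by the counting, so the level of a single member is uncertain. Whether its change between libraries is affected as well was not tested.

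The members moved together from library to library. For each library the median over the 78 tested members of log2(FPKM + 1) was taken; the libraries are given as R1 and then R2. It was 6.81 and 6.92 in siSETD2 cells and 6.48 and 6.97 in siNT cells with HU and VE-822. With VE-822 alone it was 6.39 and 6.48 in siSETD2 cells and 6.33 and 6.53 in siNT cells. With HU alone it was 6.57 and 6.61 in siSETD2 cells and 6.57 and 6.65 in siNT cells, and in untreated cells it was 7.05 and 6.43 with siSETD2 and 6.46 and 6.37 with siNT. The highest library was thus the untreated siSETD2 R1 library, followed by 3 of the 4 libraries with HU and VE-822, while its own replicate R2 was the fourth lowest of the 16. In that untreated siSETD2 pair R1 was above R2 for 74 of 78 members, by a median of 0.59, and in the siNT pair with HU and VE-822 R1 was below R2 for 75 of 78, by a median difference of -0.38. These gaps exceeded the medians of the absolute gap over all genes in the same pairs, 0.33 and 0.21. With VE-822 alone the members' median absolute gap was also the larger, at 0.16 against 0.10 (siSETD2) and 0.25 against 0.14 (siNT). It was the smaller in the remaining pairs: 0.11 against 0.21 (siSETD2, both drugs), 0.13 against 0.23 (siSETD2, HU), 0.08 against 0.18 (siNT, HU) and 0.08 against 0.18 (siNT, untreated). The SD of the median between libraries of 1 group, pooled over the 8 groups, was 0.21. Because these are bulk libraries, fewer expressing cells and less mRNA per cell cannot be told apart, and a share of all RNA says nothing of the amount of RNA per cell.

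**Figure D1:**
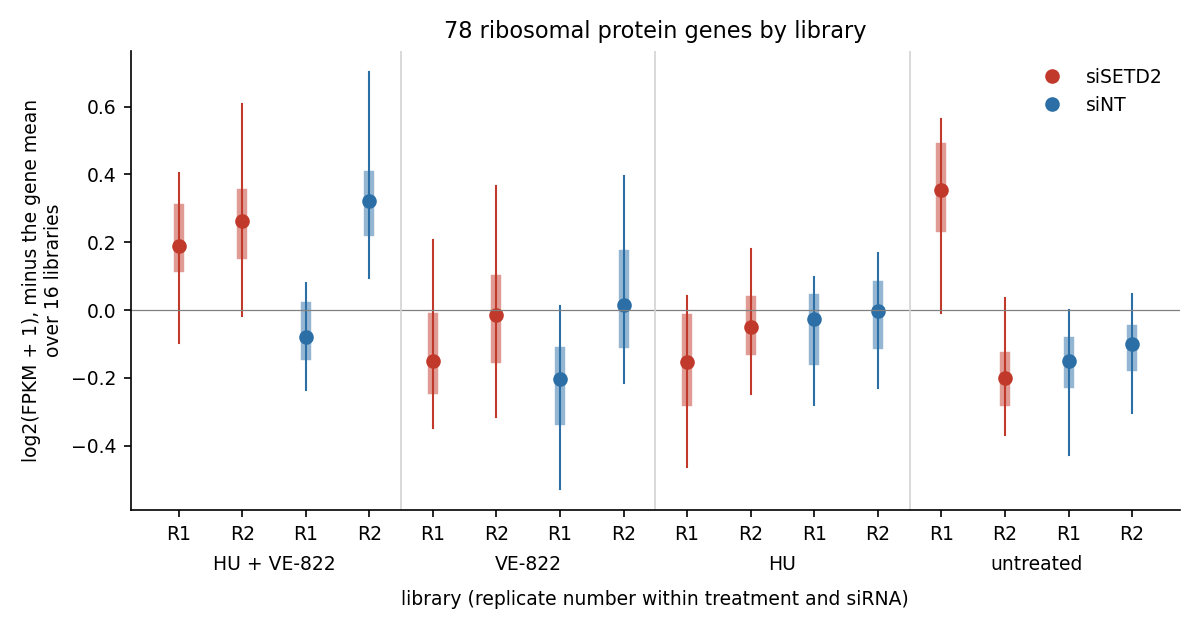
Level of 78 ribosomal protein genes in each of 16 libraries, as log2(FPKM + 1) minus the gene's mean over all libraries (y axis); points are medians over the genes, thick bars the middle 50% and thin lines the 5th to 95th percentile, with siSETD2 left of siNT in each treatment. The untreated siSETD2 R1 library and 3 of 4 libraries with HU and VE-822 stand above the rest.

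Across the 16 libraries the median correlation between 2 members was 0.74 over 3003 pairs, and 90.5% of pairs had an r above 0; without the 2 libraries farthest from the middle (untreated siSETD2 R1 and siNT with HU and VE-822 R2) it was 0.62 over 14 libraries. A first principal component held 68.5% of the members' variance. RPL24, an intersubunit bridge protein, followed the median of the other members most closely (r = 0.96). It was at 144 and 155 FPKM in siSETD2 cells and 112 and 153 FPKM in siNT cells with HU and VE-822. It was at 91.7 and 108 (siSETD2) and 84.7 and 112 FPKM (siNT) with VE-822 alone, and at 115 and 113 (siSETD2) and 122 and 114 FPKM (siNT) with HU alone. In untreated cells it was at 171 and 105 FPKM with siSETD2 and at 106 and 98.0 FPKM with siNT. The 4 highest libraries of RPL24 were those of the median, untreated siSETD2 R1 and 3 of the 4 with HU and VE-822. The order within a treatment differed: siNT R1 was the highest of the HU libraries for RPL24 and the lowest for the median. RPS15, RPS3, which lines the mRNA entry channel, and RPS13 came next at r = 0.95, and 44 members reached 0.8.

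For 11 members r was below 0.5, with RPL36A (-0.27), RPL17 (-0.08), RPL22 (-0.05), RPS10 (0.0011), RPS28 (0.16), RPL26 (0.23), RPL10A (0.35), RPL23A (0.44), RPL41 (0.47) and RPS15A (0.48) among them. These 11 include all 5 members with the lowest means and all 3 whose read-through gene is annotated. RPL36A was at 4.94 and 6.76 (siSETD2) and 5.63 and 8.14 FPKM (siNT) with HU and VE-822, at 5.04 and 8.70 (siSETD2) and 4.81 and 7.66 FPKM (siNT) with HU, and at 5.52 and 8.18 (siSETD2) and 5.63 and 8.08 FPKM (siNT) untreated. In these 6 groups R1 was below R2 each time, whereas with VE-822 alone R1 was above R2, at 7.80 and 7.05 FPKM with siSETD2 and 8.02 and 6.93 FPKM with siNT. Among members with a promoter entry, the tract at the annotated start was present in 5 of 8 with an r below 0.5, in 18 of 21 with an r between 0.5 and 0.8 and in 19 of 33 with an r of at least 0.8; these counts were not tested.

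**Figure D2:**
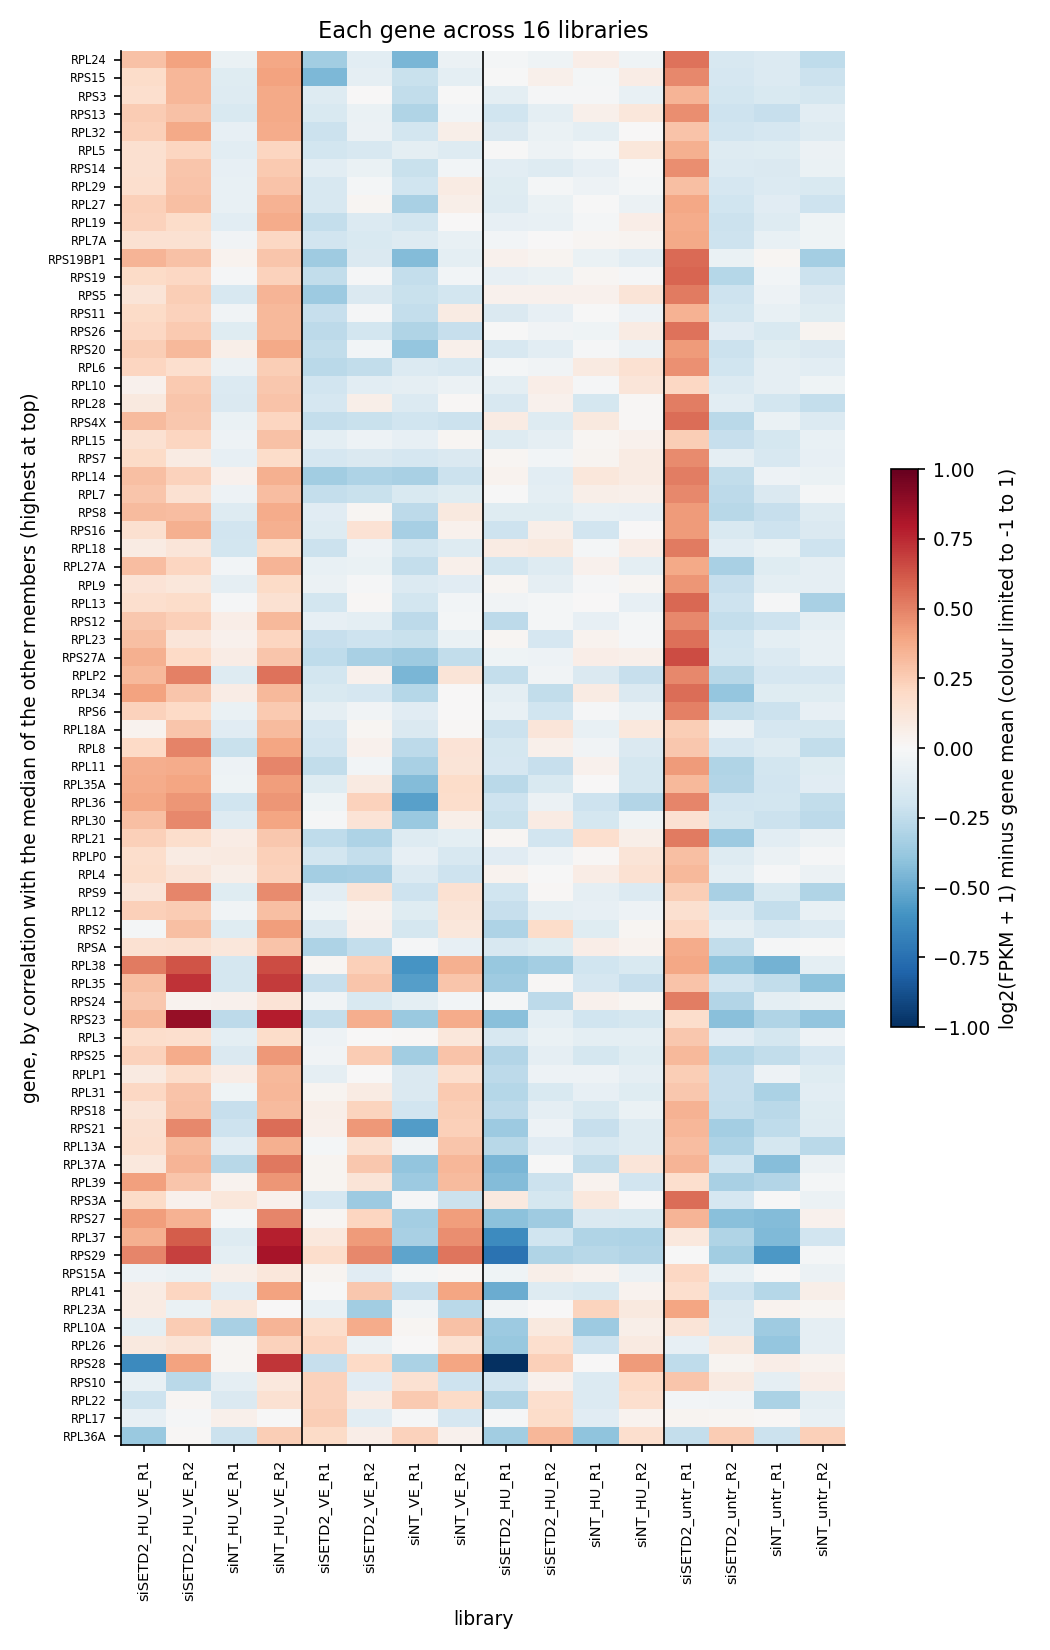
Tested members except 1 (rows, by falling correlation with the median of the other members) in each of 16 libraries (columns, siSETD2 left of siNT within each treatment), coloured by log2(FPKM + 1) minus the gene mean. Most rows share the red columns of untreated siSETD2 R1 and of the libraries with HU and VE-822 other than siNT R1. The rows at the bottom, from RPS28 to RPL36A, follow another pattern.

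A second component held 17% of the variance and set members with short coding sequences apart. Its largest loadings were those of RPS29 and RPS28 (0.28 each) of the small subunit and RPL37 (0.24) of the large one. The loading correlated with the log2 of the coding length at r = -0.55 over 78 genes, and so did the SD over libraries (r = -0.55). The 15 members with coding sequences of 75 to 345 bases had a median SD of 0.31, the 39 of 351 to 588 bases 0.21, and the 24 of 609 to 1281 bases 0.20 on the log2 scale. The largest SDs were those of RPS29 (0.48), RPS28 (0.44) and RPS23 (0.42), a protein of the decoding centre; the smallest were those of RPS15A (0.08), RPL17 (0.11) and RPL3 (0.14), which lies near the peptidyl transferase centre. RPL41, the shortest protein of the set, had an SD of 0.25, and RPL39, a protein of the exit tunnel, 0.28, so the shortest members were not the most variable ones. Whether transcript length, RNA quality or library preparation had a part in this was not tested.

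**Figure D3:**
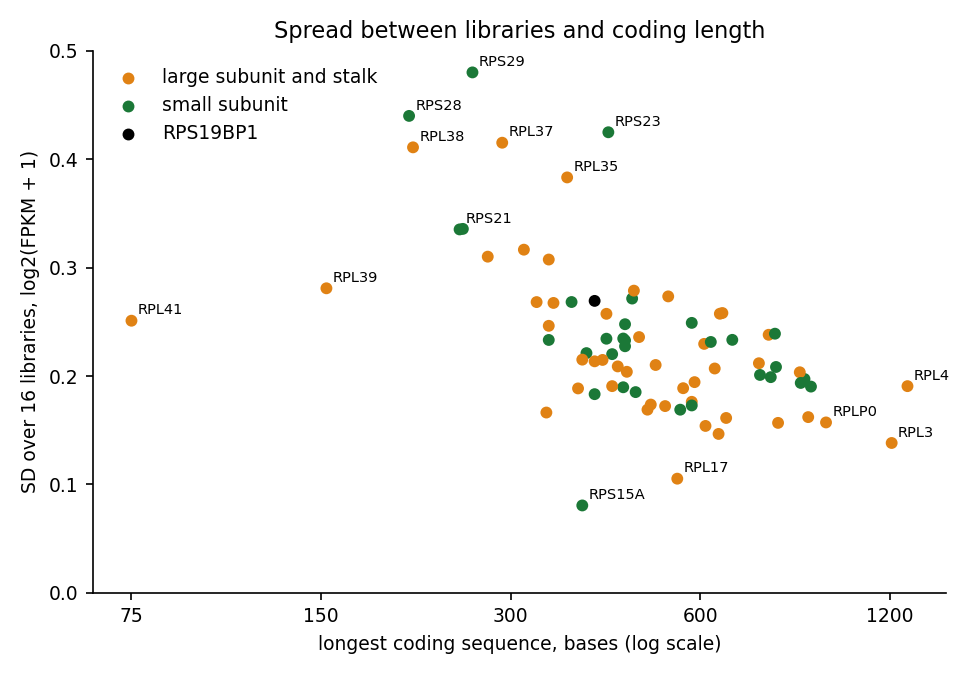
SD of log2(FPKM + 1) over 16 libraries (y axis) against the longest annotated coding sequence in bases (x axis, log scale) for 78 members, coloured by subunit. RPS29, RPS28 and RPS23 lie highest, at 0.48, 0.44 and 0.42; the coding sequence of RPS23 is of middle length (429 bases), and RPL41 and RPL39, with shorter ones, lie at 0.25 and 0.28.

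RPS28, a protein at the mRNA exit site, differed most between replicate numbers. In siSETD2 cells it was at 31.5 and 65.8 FPKM with HU and VE-822, at 42.1 and 57.0 with VE-822, at 22.9 and 58.7 with HU and at 41.5 and 50.6 FPKM untreated. In siNT cells it was at 50.2 and 81.9, 39.8 and 65.8, 49.7 and 67.1, and 52.2 and 51.0 FPKM in the same order of treatments. R1 was below R2 in 7 of 8 groups. In the siSETD2 R1 libraries with HU and with both drugs, RPS28 was lower than in any other library. SETD2 was lower in R1 than in R2 in the siSETD2 groups with both drugs (2.64 and 3.67 FPKM), with HU (2.22 and 4.13) and untreated (2.01 and 4.17). With VE-822 alone SETD2 was higher in R1 than in R2 (4.62 and 3.95 FPKM), while RPS28 was lower in R1 there too. Whether these gaps are related was not tested. Averaged over treatments, RPS28 had the lowest log2 fold change of all members for siSETD2 over siNT, -0.34 (SE 0.225, limma adjusted p = 0.689).

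The first question is whether less SETD2 mRNA went with other levels of ribosomal protein mRNA. Averaged over the 4 treatments, 66 of 78 members were higher in siSETD2 than in siNT cells and the median log2 fold change was 0.065, against -0.0075 for all genes tested. With limma's moderated test and Benjamini-Hochberg adjustment over 13088 genes, 0 of 78 members passed an adjusted p of 0.05, where 0.13% of all genes did. At an unadjusted p under 0.05 the count was also 0, against a background of 10% of genes, and limma-voom on the recovered fragments called 0 members. With the replicate number as a block in the 6 groups where it paired libraries, 3.88% of all genes passed and again 0 members. The median difference was 0.20 between R1 libraries (75 members higher) and -0.06 between R2 libraries (17 higher), and without the untreated siSETD2 R1 library it was -0.0021. The largest fold changes were 0.26 for RPL36 (SE 0.139, adjusted p = 0.581), 0.20 for RPL35 and 0.19 for RPL30, and the lowest after RPS28 were -0.10 for RPSA, which is also known as the laminin receptor precursor, and -0.05 for RPL23A.

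Within single treatments 0 of 78 members and 0% of all genes passed, and 0 members had an unadjusted p under 0.05, against 2.18% of genes with HU and VE-822, 2.93% with VE-822, 2.57% with HU and 4.42% untreated. The median log2 fold change of the members for siSETD2 over siNT was 0.10 with HU and VE-822 (66 higher), 0.0032 with VE-822 (40 higher), -0.07 with HU (16 higher) and 0.22 in untreated cells (76 higher). The untreated value rested on 1 library: it was -0.07 without siSETD2 R1 and 0.53 without siSETD2 R2. The value with both drugs was 0.29 without the siNT R2 library and -0.09 without the siNT R1 library.

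The second question is how cells with HU compared with untreated ones. Averaged over both siRNAs, 15 of 78 members were higher with HU than untreated, and the median log2 fold change was -0.05, against 0.011 for all genes. With limma, 0 members passed, against 0.107% of all genes; at an unadjusted p under 0.05 the counts were 0 members and 7.58% of genes, limma-voom called 0 members, and with the replicate block 0 members passed against 1.6% of genes. The members' median was -0.19 between R1 libraries (0 of 78 higher) and 0.13 between R2 libraries (74 higher), and it was 0.10 without the untreated siSETD2 R1 library. In siSETD2 cells 1 member was higher with HU, with a median of -0.19. In siNT cells 73 members were higher, with a median of 0.10, and both HU libraries lay above both untreated libraries for 43 of 78 members, where this held for 18.3% of all genes. The median of the difference between these responses was -0.30, with 2 of 78 differences above 0; 0 members and 0% of genes passed, with 0 members and 0.741% of genes at an unadjusted p under 0.05. It was -0.58 without the untreated siSETD2 R2 library and -0.0047 without R1. The lowest log2 fold changes for HU were -0.17 for RPS29, -0.16 for RPL36 and -0.16 for RPL37; the highest were 0.09 for RPL22, 0.04 for RPL10, which joins the large subunit late in its assembly, and 0.04 for RPL6.

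In 3 of 4 pairs of libraries the members' mRNAs were mostly higher when VE-822 was added to HU than with HU alone, by an amount that did not pass the test for any single member. Averaged over both siRNAs 71 of 78 were higher and the median log2 fold change was 0.22, against 0.014 for all genes tested. Averaged over both siRNAs it was 0.15 between R1 libraries (76 higher) and 0.30 between R2 libraries (72 higher). In siNT R1 alone the median difference was -0.0042 with 35 members higher, against 0.31 in siNT R2 (73 higher), 0.31 in siSETD2 R1 (75 higher) and 0.30 in siSETD2 R2 (70 higher). The average lay between 0.14 and 0.32 when any single library was left out. Of the 78 members 0 passed limma's adjusted p of 0.05, and 0.00764% of all genes, which is 1 gene, the centromeric histone gene CENPA, did. At an unadjusted p under 0.05, 17 members were higher and 0 lower, against 4.63% of all genes higher and 8.34% in either direction. With the replicate block, 1.31% of all genes passed and 0 members, the smallest adjusted p being 0.0901, and limma-voom called 0. For 12 of 78 members all 4 libraries with both drugs were above all 4 with HU alone, where this held for 3.84% of all genes: RPL12, RPL13A, RPL23, RPL31, RPL37, RPLP1, RPS12, RPS20, RPS27, RPS27A, RPS29 and RPSA.

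RPS29, a zinc-binding protein of the small subunit head, had the largest fold change. It was at 26.2 and 30.1 FPKM in siSETD2 cells and 17.1 and 33.3 FPKM in siNT cells with both drugs, against 10.6 and 14.7 FPKM (siSETD2) and 15.03 and 14.9 FPKM (siNT) with HU. All 4 libraries with both drugs were above all 4 with HU, although siNT R1 exceeded the highest HU library by little. RPS29 had a log2 fold change of 0.87 (SE 0.257, adjusted p = 0.4, and 0.0901 with the replicate block). RPL37, a zinc-binding protein of the large subunit, was at 44.4 and 53.01 (siSETD2) and 31.4 and 60.1 FPKM (siNT) with both drugs, against 21.9 and 29.9 (siSETD2) and 27.8 and 27.7 FPKM (siNT) with HU. The log2 fold change of RPL37 was 0.76 (SE 0.225, adjusted p = 0.4, and 0.0935 with the block), and here too the libraries did not overlap. RPL38, known in mice for its part in the translation of Hox mRNAs, followed at 0.68. Among the lowest values were -0.06 for RPS10 and -0.04 for RPL23A.

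**Figure D4:**
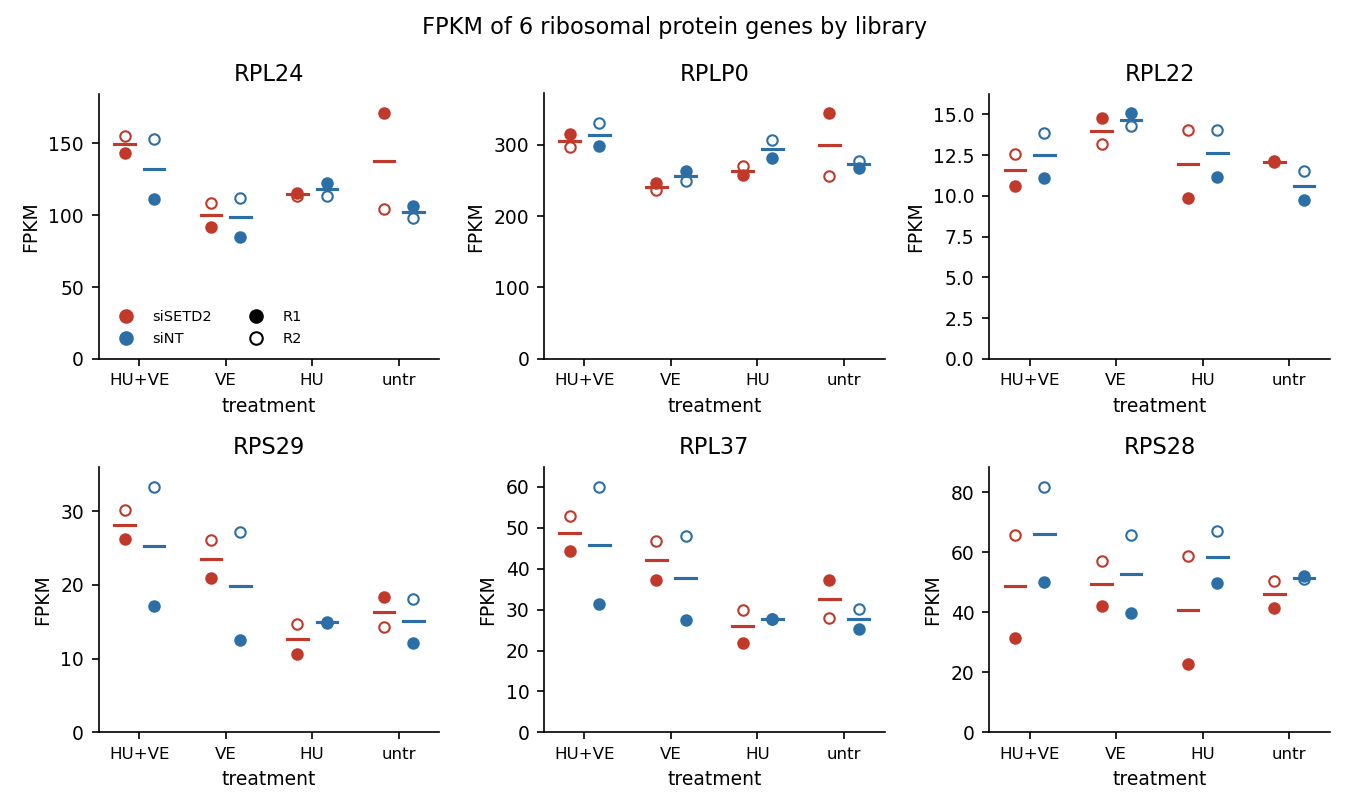
FPKM of 6 members (y axes start at 0) in each library, by treatment, with siSETD2 left of siNT, R1 as filled and R2 as open circles and lines at the mean of 2. RPS29 and RPL37 are higher with HU and VE-822 than with HU in every library; RPS28 separates by replicate number.

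The stalk proteins, which recruit translation factors to the ribosome, stood on both sides of this median. For both drugs over HU alone the log2 fold change was 0.47 for RPLP2 (SE 0.198), 0.28 for RPLP1 (SE 0.128) and 0.15 for RPLP0 (SE 0.106), the scaffold that holds RPLP1 and RPLP2. RPLP1 was at 394 and 418 (siSETD2) and 390 and 462 FPKM (siNT) with both drugs, against 309 and 358 (siSETD2) and 357 and 347 FPKM (siNT) with HU, so the 2 treatments did not overlap. RPL11 had 0.43 (SE 0.175), RPL5, its partner in binding MDM2, 0.11 (SE 0.117), and RPL23, which also binds MDM2, 0.20 (SE 0.143). RPL11 was at 146 and 147 (siSETD2) and 109 and 159 FPKM (siNT) with both drugs, against 101 and 96.5 (siSETD2) and 116 and 100.3 FPKM (siNT) with HU, and the siNT R1 libraries thus went the other way.

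In the small subunit, RPS27 had a log2 fold change of 0.57 (SE 0.211), RPS6, the substrate of the S6 kinases, 0.24 (SE 0.148), RPS3 0.24 (SE 0.141) and RPSA 0.22 (SE 0.122). RPS14 and RPS19, which are lost or mutated in inherited and acquired anaemias, had 0.24 (SE 0.131) and 0.19 (SE 0.163), RPS27A, made as a fusion with ubiquitin, 0.22 (SE 0.153), and RPS2 0.20 (SE 0.16). In the large subunit, RPL39 had 0.49 (SE 0.17), RPL13A 0.35 (SE 0.154), RPL41 0.33 (SE 0.18), RPL26 0.20 (SE 0.135) and RPL10 0.09 (SE 0.12). RPL22 stood at -0.02 (SE 0.126) and RPS28 at 0.23 (SE 0.318). By subunit the median was 0.21 for 46 members of the large subunit with the stalk (41 higher) and 0.23 for 31 of the small subunit (29 higher).

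Within siSETD2 cells the median for both drugs over HU alone was 0.30 with 72 members higher, and both libraries with both drugs lay above both with HU for 63 of 78 members, against 19.1% of all genes. Within siNT cells it was 0.15 with 71 higher, a value that rested on the R2 libraries, and the libraries were separated for 17 of 78 members, against 13% of all genes. The difference between siSETD2 and siNT had a median of 0.17 (72 above 0), with 0 members and 0% of genes passing and 0 members and 0.787% of genes at an unadjusted p under 0.05. It was 0.38 without the siNT R2 library with both drugs and -0.02 without siNT R1, so it depended on which of these libraries entered.

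**Figure D5:**
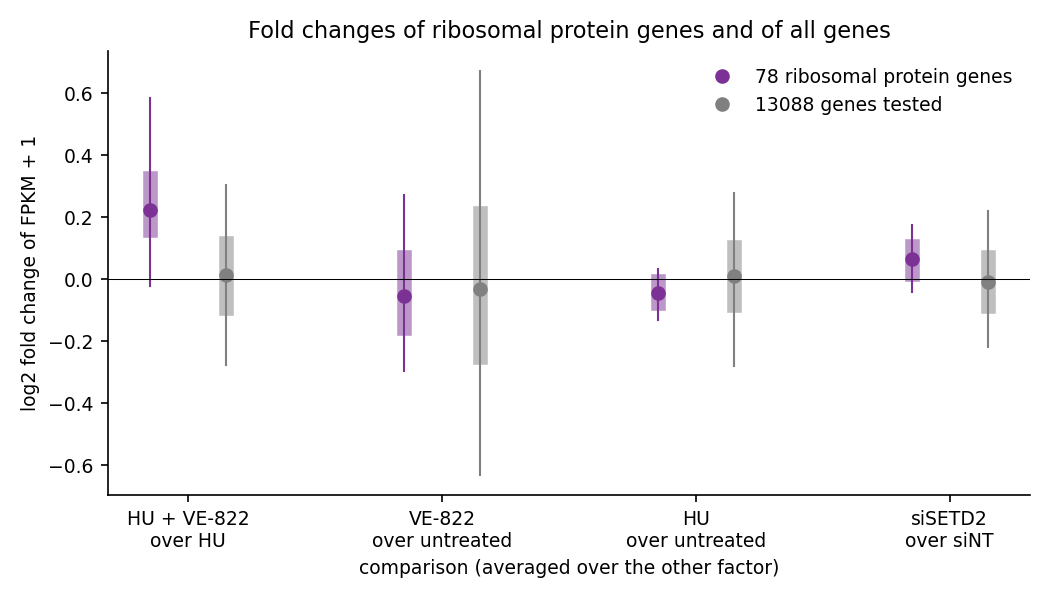
Log2 fold changes (y axis) of 78 members (purple) and 13088 genes tested (grey) in 4 comparisons, each averaged over the other factor; points are medians, thick bars the middle 50% and thin lines the 5th to 95th percentile. The members' median is 0.22 for both drugs over HU and between -0.05 and 0.07 in the other comparisons.

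The last question is how VE-822 alone compared with no treatment, where 24.7% of all genes passed. Of the 78 members 0 did with limma; the smallest adjusted p was 0.0639, and at an unadjusted p under 0.05 there were 1 higher (RPL22) and 4 lower (RPL4, RPL14, RPS26 and RPS27A), against 38.7% of all genes. Limma-voom also called 0. The median log2 fold change was -0.05 with 26 members higher, against -0.03 for all genes. It was -0.28 between R1 libraries (9 higher) and 0.17 between R2 libraries (61 higher). The replicate numbers did not pair the VE-822-alone libraries with the untreated ones, so this split is not one of matched pairs. With the replicate block in the 6 other groups 44.9% of all genes passed and 2 members did, RPL22 and RPL4. The members' median was -0.19 without the untreated siSETD2 R2 library and 0.08 without its partner R1.

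RPL22, whose protein binds RNA and has the paralog RPL22L1, was the 1 member with all 4 VE-822 libraries above all 4 untreated ones, which held for 14.6% of all genes. It was at 14.7 and 13.2 (siSETD2) and 15.1 and 14.3 FPKM (siNT) with VE-822, against 12.1 and 12.1 (siSETD2) and 9.74 and 11.5 FPKM (siNT) untreated. For VE-822 over untreated, RPL22 had a log2 fold change of 0.31 (SE 0.126, adjusted p = 0.093, and 0.0084 with the block); its overlapping genes include RNF207 on the other strand. RPL22L1 was at 30.6 and 30.9 (siSETD2) and 29.4 and 31.4 FPKM (siNT) with VE-822, against 32.5 and 20.3 (siSETD2) and 23.3 and 23.2 FPKM (siNT) untreated, with the same log2 fold change of 0.31 (SE 0.129, adjusted p = 0.102).

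RPL4, which lines the peptide exit tunnel, RPS26, which lies at the mRNA exit, and RPS27A had all 4 VE-822 libraries below all 4 untreated ones, which held for 16.5% of all genes. RPL4 was at 237 and 238 (siSETD2) and 272 and 259 FPKM (siNT) with VE-822, against 377 and 280.0 (siSETD2) and 297 and 288 FPKM (siNT) untreated. RPL4 had a log2 fold change of -0.29 (SE 0.105, adjusted p = 0.0639, and 0.0289 with the block). The lowest fold changes were -0.36 for RPS27A (SE 0.153), -0.34 for RPL14 (SE 0.143) and -0.32 for RPS26 (SE 0.144), and the highest were 0.40 for RPS29 (SE 0.257), 0.37 for RPL37 (SE 0.225) and 0.33 for RPL10A of the L1 stalk (SE 0.183). Among the stalk proteins the values were -0.19 for RPLP0, 0.02 for RPLP1 and -0.08 for RPLP2. For the VE-822 response in siSETD2 minus siNT cells the median was -0.22 (6 above 0), with 0 members and 0% of genes passing and 0 members and 1.73% of genes at an unadjusted p under 0.05; it was 0.08 without the untreated siSETD2 R1 library.

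Genes that act with these proteins are given beside the shares over all genes tested, of which 53.6% were lower with VE-822, 13.4% were called lower and 11.4% called higher. Of 31 ribosome assembly factors tested, 29 were lower with VE-822 and 4 fell: EBNA1BP2 by 0.80, RRP9 by 0.58, EIF6, which keeps the large subunit from joining too early, by 0.45, and the pseudouridine synthase DKC1 by 0.37, with 0 higher calls. These 4 are 12.9% of the list, a share of calls near that of all genes. NPM1, the nucleolar chaperone, was at 161 and 173 (siSETD2) and 203 and 179 FPKM (siNT) with VE-822, against 351 and 199 (siSETD2) and 223 and 220 FPKM (siNT) untreated, with a log2 fold change of -0.44 (SE 0.156, adjusted p = 0.0627, and 0.0214 with the block). Of 17 translation factors and other TOP mRNAs 14 were lower and 2 fell, EIF3H by 0.50 and the poly(A) binding protein PABPC1 by 0.35, while the elongation factors EEF1A1 (0.03, SE 0.122) and EEF2 (-0.09, SE 0.105) did not pass; the 2 are 11.8% of the list. Of 7 dedicated chaperones of ribosomal proteins 6 were lower and BCCIP fell by 0.69, and of 7 paralogs 6 were lower and RPL26L1 fell by 0.46, which is 1 gene in each list. Of 13 snoRNA host transcripts 12 were higher and 0 passed; GAS5, the best known of them, had 0.42 (SE 0.182, adjusted p = 0.112, and 0.0076 with the block).

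Of 14 genes of RNA polymerase I, which makes the large rRNA, UBTF rose by 0.82 while TAF1A fell by 0.53 and POLR1E by 0.45. In the mTORC1 list of 16 genes LARP1, which binds TOP mRNAs, rose by 0.28 and the S6 kinase gene RPS6KB1 by 0.36, while EIF4EBP1 fell by 0.79 and SESN2 by 0.68. Among 8 genes of the MYC network MNT rose by 0.45 and MXD1 fell by 0.69, and MYC itself stood at 0.0023 (SE 0.13). CDKN1A, an inhibitor of cyclin-dependent kinases, fell by 1.02, and MDM2, the ubiquitin ligase that RPL5 and RPL11 bind, had -0.61 (SE 0.206, adjusted p = 0.052, and 0.0051 with the block). With VE-822 MDM2 was at 3.31 to 3.51 FPKM and CDKN1A at 32.8 to 39.15 FPKM. Untreated MDM2 was at 8.26 and 3.95 (siSETD2) and 7.60 and 4.02 FPKM (siNT). Untreated CDKN1A was at 124 and 52.2 (siSETD2) and 88.1 and 47.8 FPKM (siNT). Both falls were thus larger against the untreated R1 libraries than against R2. Of 78 mitochondrial ribosomal protein genes 66 were lower, with a median of -0.18, 14 lower calls (17.9%) and 1 higher. Of 36 proteasome genes 32 were lower and 8 fell (22.2%), and of 73 respiratory chain genes 47 were lower, with 7 lower calls (9.59%) and 1 higher. Over all genes 13.4% were called lower and 11.4% higher. Whether the cytosolic ribosomal proteins differ from these lists was not tested.

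In the comparison of both drugs with HU alone, 0 genes passed in each of these lists. MYC, an activator of ribosomal protein genes, was at 172 and 213 (siSETD2) and 134 and 177 FPKM (siNT) with both drugs, against 135 and 150 (siSETD2) and 121 and 143 FPKM (siNT) with HU. MYC had a log2 fold change of 0.33 (SE 0.13, adjusted p = 0.535), and MTOR had -0.17 (SE 0.0981, adjusted p = 0.729). DDIT4, an inhibitor of mTORC1, had 0.70 (SE 0.264, adjusted p = 0.518, and 0.0443 with the block). Of the other lists, 61 of 73 respiratory chain genes were higher with a median of 0.14 and 63 of 78 mitochondrial ribosomal protein genes with 0.09; for 31 assembly factors it was 0.05, with 21 higher.

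Outside the rule, ribosomal proteins with other names include FAU, a fusion protein that yields a small subunit protein, with a mean of 89.2 FPKM, and RACK1, a scaffold protein on the small subunit, with 134 FPKM. For both drugs over HU alone the log2 fold change was 0.23 for FAU and 0.16 for RACK1, and for VE-822 over no treatment it was -0.29 for FAU and -0.04 for RACK1, none past the threshold. The paralogs RPL36AL and RPS27L had 0.44 (SE 0.192) and 0.15 (SE 0.189) for both drugs over HU.

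Among the genes outside the rule that followed the members' median most closely were the DNA repair endonuclease APEX1 (r = 0.96), the chromatin protein PTMA (0.95), MRPL58 of the mitochondrial ribosome (0.95), PARK7 (0.95), the ATP synthase subunit ATP5MC2 (0.95), the exon junction protein MAGOH (0.95) and the nuclear transport GTPase RAN (0.94). The lowest correlations were -0.93 for AC084824.4, -0.87 for NBPF12, -0.87 for AC104964.3 and -0.86 for NKTR. Among lists, the medians of respiratory chain (0.94) and mitochondrial ribosomal protein genes (0.94) followed the members more closely than those of translation factors and other TOP mRNAs (0.81), assembly factors (0.84), mTORC1 genes (0.50) or snoRNA hosts (0.15), by value and with no test. These points share 16 libraries, in which the untreated siSETD2 R1 library weighs heavily. Without the 2 farthest libraries the values were 0.88, 0.90, 0.69, 0.79, 0.79 and -0.03 in the order of the lists above. The list medians were taken over 73, 78, 17, 31, 16 and 13 genes in that order. Whether list size had a part in these values was not tested.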

How the data were processed

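The deposited table holds FPKM values by the authors for 58735 Ensembl genes and 16 libraries. Per the submitters' processing notes they used DESeq2 1.26.0, featureCounts 1.5.0-p3, STAR 2.6.1d and FastQC on build hg38; of their settings, the annotation release and the strand mode, nothing is stated in the sources used here. If strand was not counted, a gene and an antisense partner that overlaps it share fragments. All identifiers occur in GENCODE 29, which gave symbols, positions and merged exon lengths.

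Dividing out length and the value of 1 fragment gave whole fragments for 100% of values (tolerance 0.01), with 22310806 to 31101932 per library. Their sum in a library was not the deposited scale exactly (0.94 to 1.07 of it), so scaling to these totals was an alternative. Values were tested as log2(FPKM + 1) with limma 3.58.1 (trend, R 4.3.3) on 13088 genes (mean FPKM 1 or more), 8 group means, all 16 libraries and Benjamini-Hochberg adjustment at 0.05. Fold changes are on that scale and understate those of low genes. The code was tested on simulated data.

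R1 and R2 were taken as pairs among groups whose R1 minus R2 differences all correlated above 0.1: r was 0.36 to 0.75 in 15 pairs among the 6 groups without VE-822 alone, -0.05 to 0.30 in 12 pairs that mix in a VE-822 group, and 0.39 between both VE-822 groups. As alternatives the block was therefore used in 6 groups, and, added after seeing the data, also with a separate block in both VE-822 groups.

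Members and lists were chosen with earlier results of these data known. Named were genes by role, the 5 highest and 5 lowest means, the 3 largest and 3 smallest SDs, members past a threshold or else the 3 largest and 3 smallest fold changes of the averaged comparisons, and the 8 most and 4 least correlated other genes; genes with non-overlapping libraries, RPL24 and others named beside a count were added after their values were seen. Some genes that this rule picks are not reported here. Alternatives were the replicate block, another pseudocount, other filters, 2 scalings, limma-voom on recovered fragments, leaving out the VE-822-alone libraries, other readings of the member rule and leaving out each library.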

Additional observations from a re-analysis of the deposited data

Results flagged for a closer look

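For 3 members, picked out among all tested members, the libraries of 1 group moved in the opposite direction from those of another group under the same contrast. The share of all genes with this pattern is not given here. Whether 3 members are more than scatter between libraries alone would give was not tested. RPL17 had a log2 difference of siSETD2 over siNT of -0.07 with HU and VE-822 and of 0.06 untreated; untreated minus both drugs was 0.13. RPS4X had a log2 difference of siSETD2 over siNT of 0.22 with HU and VE-822 and of -0.02 with VE-822 alone, where VE-822 alone minus both drugs was -0.24. These differences were not tested. RPS15A had a log2 difference of HU with VE-822 over HU of -0.07 in siSETD2 cells and of 0.09 in siNT cells, a difference of -0.16 (limma interaction, adjusted p = 1.0). RPS15A and RPL17 are the tested members with the smallest SD over the 16 libraries.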

How the results depend on the processing

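The members held at least 649993 fragments in each library, so their counting error was small beside the gap between replicates, above all in the untreated siSETD2 pair. For VE-822 against untreated the count of members past the threshold was 0 as reported, 2 with the replicate block over 8 groups, 2 with the block in 6 groups (RPL22 and RPL4), 3 with a separate block for both VE-822 groups (RPL22, RPL4 and RPL23A), which was added after seeing the data, and 1 after scaling to library totals (RPL4); leaving out 1 library gave 0 to 25. For siSETD2 against siNT in untreated cells the count likewise changed only without the untreated siSETD2 R2 library. There the members' median was 0.53 without R2 and -0.07 without R1, against 0.22 as reported. Without RPL3 to RPL9, an alternative added after seeing the data, the members held 2.48% of fragments instead of 3.05%. The replicate block changed no other call of a member. Some single genes that did not pass turned sign when 1 library was left out, with these ranges of log2 fold change. For HU with VE-822 over HU RPS10 ranged between -0.14 and 0.0238 and RPL23A between -0.0773 and 7.6e-05. For HU over untreated RPL36 ranged between -0.33 and 0.0113, RPL6 between -0.13 and 0.20, RPL10 between -0.0495 and 0.12 and RPL22 between -0.0225 and 0.21. For siSETD2 over siNT, averaged over the 4 treatments, RPL23A ranged between -0.12 and 0.0190. The reported count of members called was 0 in every comparison, and it was 0 again in 298 alternative counts and above 0 in 6. Alternatives that only shortened the member list used the same fit, so their counts could not rise above 0. In several comparisons 0% of all genes passed as reported, so the 298 say little about the members. Of the medians, 297 moved by less than the pooled SD between replicates (0.21) and 7 by more. Many of the 297 could not move, because the library left out was not part of the comparison. Their number is thus no measure of stability. Since many reported medians were smaller than 0.21, a median could change sign and still be among the 297. That for HU over untreated did so, from -0.05 to 0.10 without the untreated siSETD2 R1 library. The cause of these changes was not tested.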
